A study of Rattus norvegicus with 12 samples.

Results

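The gene set described here holds 42 genes of microglial identity and signalling, followed by microarray in the rostral ventrolateral medulla (RVLM) of rats of 3 ages. A member was taken by name: a non-control probe belonged to it when the gene name in the array file, or the current symbol of that probe, was on the list. Of the 42 members, 38 had at least 1 probe, with 47 probes among the 41012 on the array, and 35 were tested among 25446 items, 14114 of which had a gene name. The members fell into 8 roles: chemokine and nucleotide receptors, colony-stimulating factor receptors, other surface proteins, lysosomal and secreted markers, integrins, transcription factors, proximal signalling, and actin and small GTPase signalling.

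Microglia are the resident macrophages of the brain and spinal cord. They watch the tissue through receptors for the neuronal chemokine fractalkine and for released nucleotides, depend on signalling through the colony-stimulating factor 1 receptor for survival, and are specified by transcription factors such as PU.1, encoded by Spi1, and Sall1. Many of their signalling genes are shared with blood-borne leukocytes, because microglia belong to the myeloid lineage.

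The animals were male F344 rats, an inbred strain, and the labels name no agent besides the terminal anaesthetic. The young group was 3 months old, the middle-aged group 12 months and the aged group 24 months, with 3 animals in each. Frozen brains were punched at the RVLM, the brainstem site of neurons that drive sympathetic nerves, and total RNA was hybridised with 1 dye to whole-genome arrays. Replicate 3 of each age was run on 2 arrays, which were averaged, so 12 arrays stood for 9 animals. A punch holds every cell type of the site, so more microglia and more RNA per microglial cell cannot be told apart.

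Levels are given as log2 signal relative to the 75th percentile of the array, on which 0 is the signal of the probe at that percentile. They compare animals for 1 probe, not genes with each other. Markers of catecholamine neurons, a cell type of the site, were present: Th, Dbh, Slc18a2 and Npy were all measured above background. Pnmt, another gene of that marker list, had no probe under its name. Between 73.5% and 77.1% of the spots of an array exceeded background clearly, and saturated spots numbered 0. The second principal component carried 21.7% of the variance. On it 1 animal of each age stood apart, at 24.3 for replicate 2 of the young, 16.1 for replicate 3 of the middle-aged and 26.5 for replicate 3 of the aged group, against −19.0 to 3.50 for the others. The 3 slides were partly confounded with age. Slide 3 alone held all 3 ages, and the arrays of replicates 1 and 2 of the young and the aged group were on different slides.

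Each probe reads 1 stretch of 60 bases of the RNA, so what a member's value stands for depends on that stretch. The following probes are shown because the array files place their 60 bases over a longer stretch of the rat genome (build rn3), so that they read RNA joined across an intron. The probes of Aif1 (chr20:3715789-3716370, plus strand), Ptprc (chr13:51316811-51371847, minus strand) and Rac2 (chr7:116555414-116559057, minus strand) are those of members that rose with age. The probes of Itgam (chr1:187534913-187535446, plus strand) and Csf1r (chr18:57177463-57178164, plus strand) are those of defining microglial genes that did not pass. The Inpp5d probe (chr9:86857307-86859108, plus strand) is 1 of 3 for this gene that gave different values.
Aif1: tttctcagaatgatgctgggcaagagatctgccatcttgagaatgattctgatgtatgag
Ptprc: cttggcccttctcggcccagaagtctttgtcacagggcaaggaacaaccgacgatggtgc
Rac2: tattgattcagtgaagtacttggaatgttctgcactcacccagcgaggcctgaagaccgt
Itgam: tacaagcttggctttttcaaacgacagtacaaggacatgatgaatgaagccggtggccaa
Csf1r: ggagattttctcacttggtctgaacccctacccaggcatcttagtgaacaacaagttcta
Inpp5d: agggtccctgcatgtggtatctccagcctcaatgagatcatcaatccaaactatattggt

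In aged against young animals, 12 of the 35 tested members rose and 0 fell. The members that rose were the receptors Cx3cr1 and P2ry12, the surface proteins Ptprc and Ly86, the lysosomal genes Cd68 and Laptm5, the integrin Itgb2, the transcription factor Runx1, the signalling genes Plcg2 and Ptpn6, and the actin-related Aif1 and Rac2. Over all items tested, 1.57% rose and 0.472% fell, which is 2.04% in either direction (limma, adjusted p under 0.05). The median difference of the 35 members was 0.63 on the log2 scale, against 0.03 over all items, and 34 of them had a positive difference. Of the 23 members that did not pass, 12 had an adjusted p between 0.05 and 0.10. Under another background correction, normexp, which models background from the spot and its surroundings, 12 members also passed, but without Ptprc, Plcg2 and Rac2 and with Arhgdib, Lyn and P2ry6, and the median difference was 0.41. The count of 12 was 7 without young replicate 2, young replicate 3 or aged replicate 1. Levels of the aged animals lay above those of all young animals for 29 of the 35 members and below for 0; among all items with a value in every animal the shares were 14.0% and 8.68%. The members were chosen with earlier results of these data known, so these counts describe them and are no independent evidence of a direction.

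**Figure D1:**
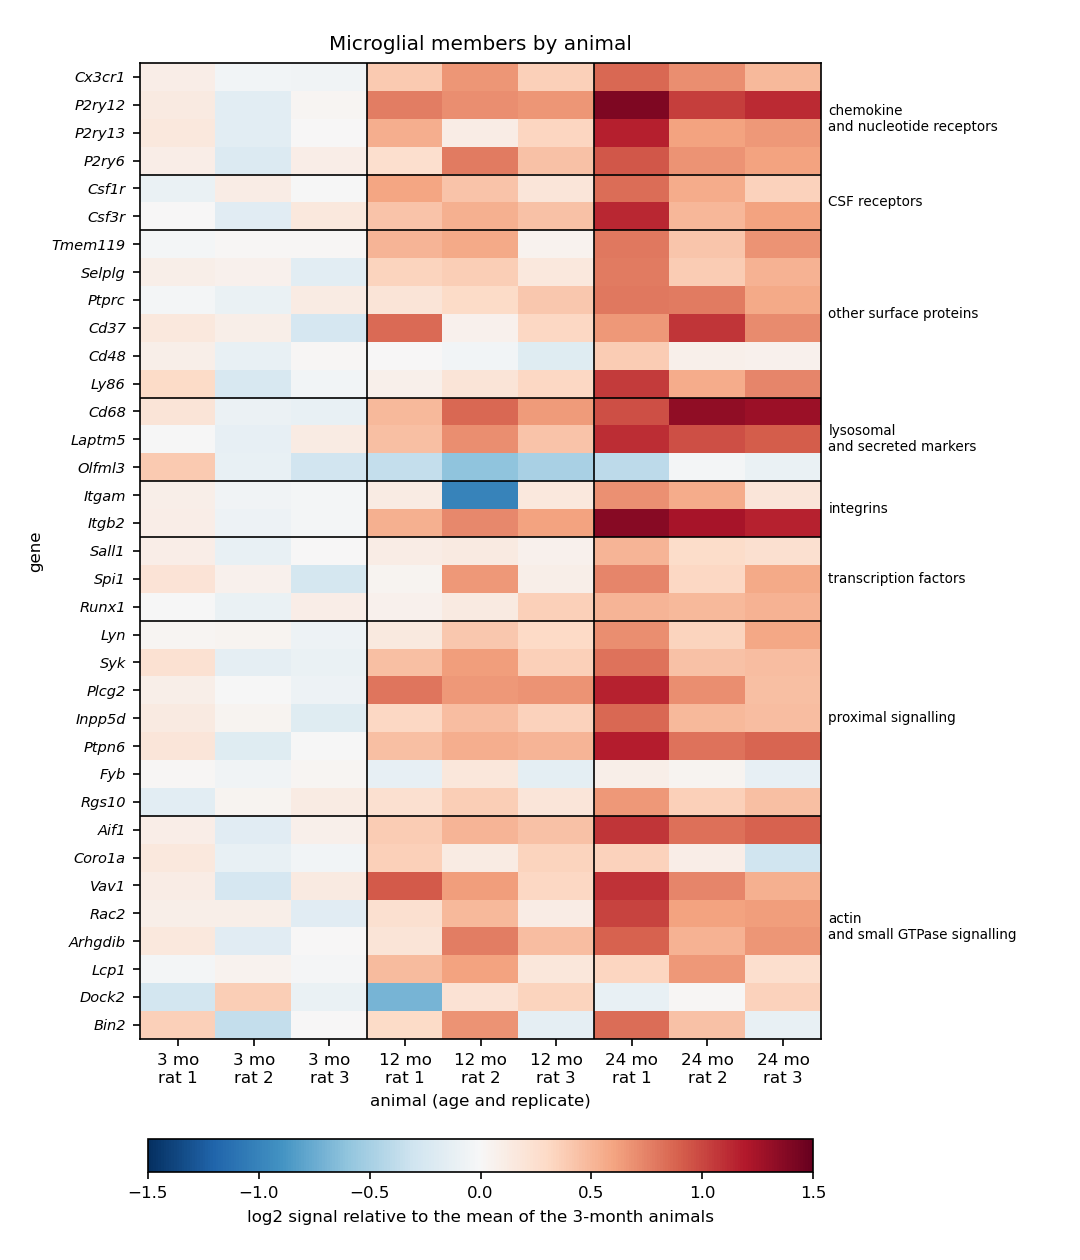
Colour gives the log2 signal of each of the 35 tested members (rows, by role) in each of the 9 animals (columns), relative to the mean of the 3-month animals. Most rows are pale at 3 months, intermediate at 12 and darkest red at 24, with aged replicate 1 the highest of its group for 29 of the 35 members; exceptions include Olfml3, Fyb, Coro1a, Dock2, Cd48, Itgam and Lcp1.

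Among the receptors, Cx3cr1 encodes the fractalkine receptor and the P2ry genes encode G protein-coupled receptors for nucleotides. The level of Cx3cr1 was −1.54, −1.69 and −1.70 in the young animals, −1.25, −0.98 and −1.28 in the middle-aged and −0.78, −0.95 and −1.15 in the aged. Both older groups lay above the young without overlap, while the aged and middle-aged ranges overlapped. Cx3cr1 rose by 0.68 ± 0.12 (SE, n = 3 animals per age), or 1.61-fold, from young to aged (limma, adjusted p = 0.0255). It did not pass when any young animal, aged replicate 1 or aged replicate 2 was left out, with adjusted p up to 0.0983.

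P2ry12, the ADP receptor that guides microglial processes, had levels of 1.06, 0.77 and 0.95 in young, 1.70, 1.63 and 1.59 in middle-aged and 2.32, 1.97 and 2.05 in aged animals. The 3 ages were fully separated, in order of age. The rise from young to aged was 1.19 ± 0.11, or 2.27-fold (limma, adjusted p = 0.00211). P2ry13, another ADP receptor, and P2ry6, a UDP receptor, had differences of 0.81 and 0.74, with limma adjusted p = 0.0537 and 0.0502, and that of P2ry13 was 0.45 with the normexp correction. In both, all aged animals lay above all young animals. The fifth gene of the role, Gpr34, had no probe under its name.

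Of the 3 colony-stimulating factor receptors, Csf1r and Csf3r were tested and neither passed, and Csf2ra had no probe. Csf1r, the receptor on which microglia depend, had levels of −0.07, 0.14 and 0.02 in young, 0.62, 0.46 and 0.21 in middle-aged and 0.87, 0.58 and 0.37 in aged animals. Every animal of the older groups lay above every young one, but the spread among the 3 aged animals was wide. The difference from young to aged was 0.58 ± 0.15, with a limma adjusted p = 0.098. Csf3r, the receptor for granulocyte colony-stimulating factor, differed by 0.74 ± 0.16 (adjusted p = 0.0585), by 0.48 with slide as a term and by 0.15 with the normexp correction.

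Among other surface proteins 2 of the 6 tested members rose. Ptprc encodes CD45, the phosphatase found on all nucleated haematopoietic cells. Its level was −3.87, −3.93 and −3.71 in young, −3.64, −3.55 and −3.43 in middle-aged and −3.04, −3.05 and −3.27 in aged animals, so that the ages did not overlap. Ptprc rose by 0.71 ± 0.10, or 1.64-fold (limma, adjusted p = 0.0081), but by 0.30 with the normexp correction, which did not pass (adjusted p = 0.296). Ly86, which encodes the MD-1 partner of a Toll-like receptor homologue, measured −1.60, −2.12 and −1.92 in young animals and −1.80, −1.69 and −1.56 in middle-aged animals, ranges that overlapped. In the aged animals it measured −0.83, −1.31 and −1.15, above both. It rose by 0.78 ± 0.16 (adjusted p = 0.0493), close to the threshold. Of the 9 fits without 1 animal it passed only in that without young replicate 1, and adjusted p reached 0.157.

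Tmem119, a surface protein used to tell microglia from other macrophages, measured −3.40, −3.35 and −3.35 in young, −2.85, −2.80 and −3.32 in middle-aged and −2.58, −2.95 and −2.69 in aged animals. Middle-aged replicate 3 lay with the young animals and the other two did not. The difference from young to aged was 0.63 ± 0.15 (limma, adjusted p = 0.0761), and 0.36 with the normexp correction. Selplg, a selectin ligand, and Cd37, a tetraspanin, had differences of 0.56 and 0.81 that did not pass either, and of 0.36 and 0.30 with that correction. Cd48 had a difference of 0.17. The other two genes of the role, Siglech and Cd53, were not tested: the Siglech probe was well above background on 1 of 4 aged arrays and 0 of 4 young arrays, and Cd53 had no probe.

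The lysosomal members Cd68 and Laptm5 were among the 4 members with the largest differences. Cd68, a glycoprotein of late endosomes and lysosomes in phagocytes, measured −1.42, −1.70 and −1.72 in young, −1.12, −0.75 and −0.97 in middle-aged and −0.65, −0.28 and −0.33 in aged animals. It rose by 1.19 ± 0.14, or 2.29-fold (limma, adjusted p = 0.00401). Laptm5, a lysosomal membrane protein of haematopoietic cells, measured 3.05, 2.92 and 3.18, then 3.50, 3.75 and 3.48, then 4.16, 4.01 and 3.96 in young, middle-aged and aged animals. The ages were separated in both genes. Laptm5 rose by 1.00 ± 0.11, or 1.99-fold (adjusted p = 0.00306).

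Olfml3, a secreted protein of microglia, was the exception among the members. It measured −3.96, −4.46 and −4.63 in young, −4.70, −4.95 and −4.83 in middle-aged and −4.74, −4.38 and −4.45 in aged animals. All middle-aged animals lay below all young ones, which held for 1 of the 35 members and for 4.61% of all items. The differences of −0.48 ± 0.17 from young to middle age and −0.18 ± 0.17 from young to aged did not pass (limma, adjusted p = 0.639 and 0.674).

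Integrins of leukocytes pair the beta-2 chain, encoded by Itgb2, with an alpha chain such as CD11b, encoded by Itgam. Itgb2 had the largest difference of the members. Its level was −1.45, −1.61 and −1.57 in young, −1.01, −0.83 and −0.94 in middle-aged and −0.18, −0.31 and −0.38 in aged animals. Its pooled SD within ages, 0.0934, was the lowest of the 35 members. Itgb2 rose by 1.25 ± 0.09, or 2.38-fold, from young to aged (limma, adjusted p = 0.000552).

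Itgam measured −1.31, −1.46 and −1.43 in young, −1.28, −2.40 and −1.25 in middle-aged and −0.71, −0.84 and −1.21 in aged animals. Middle-aged replicate 2 lay far below every other animal, although the same animal was the highest of its group for 21 of the 35 members. Aged animals lay above young ones without overlap. The difference of 0.48 ± 0.28 did not pass (limma, adjusted p = 0.468). The adjusted p stayed above the threshold without each animal in turn, with a lowest value of 0.137. Itgal, an alpha chain more typical of lymphocytes, was not tested, since its brighter probe was well above background on 2 of 4 aged arrays and on 0 of the others.

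Of the transcription factors, Runx1, a regulator of blood and microglial development, measured 0.14, 0.04 and 0.24 in young, 0.20, 0.27 and 0.50 in middle-aged and 0.65, 0.62 and 0.66 in aged animals. The aged animals lay close together and above all others, and the younger groups overlapped. Runx1 rose by 0.51 ± 0.09, or 1.42-fold (limma, adjusted p = 0.0319), and did not pass without any 1 of the young or aged animals, with adjusted p up to 0.119. Sall1, which sets microglia apart from other macrophages, measured −0.67, −0.89 and −0.77 in young, −0.67, −0.64 and −0.72 in middle-aged and −0.27, −0.50 and −0.53 in aged animals. Spi1, which encodes PU.1, measured −3.92, −4.06 and −4.38, then −4.08, −3.47 and −4.04, then −3.39, −3.81 and −3.55 in the same order. Aged animals lay above young ones in both genes. Their differences of 0.34 ± 0.09 and 0.54 ± 0.19 did not pass (adjusted p = 0.125 and 0.236), and that of Spi1 was 0.22 with the normexp correction and 0.82 with slide as a term. Irf8 had no probe.

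Proximal signalling members carry signals from receptors with tyrosine-based motifs. Among them Lyn and Syk are kinases, Plcg2 a phospholipase, and Inpp5d and Ptpn6 encode the inhibitory phosphatases SHIP-1 and SHP-1. Of the 7 members, all tested, 2 rose. Ptpn6 measured 0.76, 0.40 and 0.57 in young, 1.02, 1.11 and 1.09 in middle-aged and 1.76, 1.39 and 1.44 in aged animals. The ages did not overlap, and the rise was 0.96 ± 0.12, or 1.94-fold (limma, adjusted p = 0.00567).

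Plcg2 measured −3.79, −3.88 and −3.96 in young, −3.07, −3.23 and −3.19 in middle-aged and −2.72, −3.18 and −3.42 in aged animals. Both older groups lay above the young, and they overlapped each other. It rose by 0.77 ± 0.16 from young to aged (limma, adjusted p = 0.0493), and its difference between young and middle age, 0.71, was nearly as large but did not pass (adjusted p = 0.217). With the normexp correction the difference from young to aged was 0.34 and did not pass (adjusted p = 0.237). Of the fits without 1 animal it passed only in that without aged replicate 3, and adjusted p reached 0.151. Lyn, Syk, Inpp5d and Rgs10, an inhibitor of G protein signalling, had differences of 0.49 to 0.61, with adjusted p = 0.0502, 0.0893, 0.0528 and 0.0625. That of Syk was 0.30 with the normexp correction. Fyb, an adaptor protein, had a difference of 0.00 ± 0.10, whose sign changed between alternatives.

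Actin and small GTPase members organise the cytoskeleton of moving and engulfing cells, and 2 of the 8 tested rose. Aif1 encodes IBA1, the actin-binding protein stained to show microglia. It measured 2.09, 1.81 and 2.06 in young, 2.37, 2.49 and 2.43 in middle-aged and 3.05, 2.81 and 2.87 in aged animals. The 3 ages were separated, and Aif1 rose by 0.92 ± 0.10, or 1.90-fold (limma, adjusted p = 0.00345). Rac2, a haematopoietic small GTPase, measured −2.60, −2.60 and −2.86, then −2.45, −2.21 and −2.58, then −1.67, −2.09 and −2.06 in young, middle-aged and aged animals. It rose by 0.75 ± 0.14 (adjusted p = 0.0379), whereas with the normexp correction the difference was 0.48 and did not pass (adjusted p = 0.0871). Of the fits without 1 animal Rac2 passed only in that without middle-aged replicate 2, and adjusted p reached 0.124.

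The remaining members of the role ranged widely. Vav1, an exchange factor for small GTPases, and Arhgdib, which holds these GTPases inactive, had differences of 0.78 ± 0.19 and 0.69 ± 0.16 that did not pass (limma, adjusted p = 0.0887 and 0.0753), and that of Vav1 was 0.34 with the normexp correction. Lcp1 and Bin2 had differences of 0.41 and 0.39, which were 0.25 and 0.16 with that correction, and Bin2 was at −0.15 with slide as a term. Dock2 and Coro1a, at 0.09 and 0.05, lay near 0 and changed sign between alternatives. Bin2 had the highest pooled SD within ages of the 35 members, 0.416. Was was not tested, since its probe was well above background on 1 of 4 arrays of each age.

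**Figure D2:**
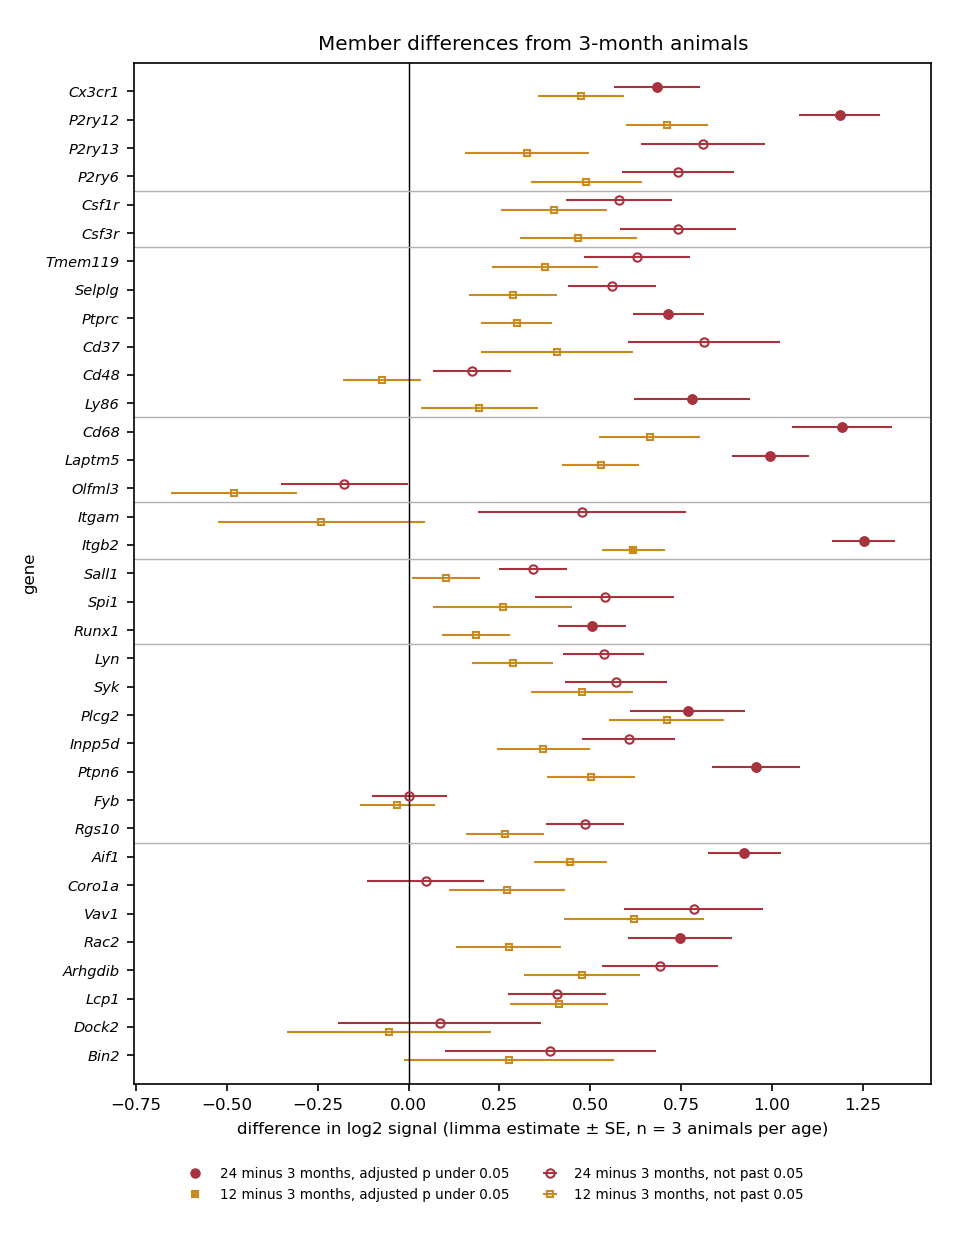
Points give the difference in log2 signal from the 3-month animals for each of the 35 tested members, at 24 months (circles) and 12 months (squares), with bars for the limma SE and filled symbols for an adjusted p under 0.05. The 12 filled circles lie between 0.51 and 1.25, and Itgb2, at 0.62, is the 1 filled square.

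Middle age held an intermediate place for most members. Against young animals, 1 of 35 members rose at 12 months, Itgb2, by 0.62 ± 0.09 (limma, adjusted p = 0.0401), and 0 fell. Over all items 0.161% rose and 0.0393% fell, 0.200% in either direction. The median difference of the members was 0.37 against 0.01 for all items. An unadjusted p under 0.05 was found for 22 of the 35 members, against 1617 of all 25446 items. Middle-aged animals lay above all young animals for 22 members, against 6.75% of all items. The rise of Itgb2 at 12 months did not pass when any 1 of the 9 animals was left out, nor under 6 of the other alternatives tried.

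From 12 to 24 months 0 of the 35 members passed in limma, and 0.0118% of all items were called. An unadjusted p under 0.05 was found for 14 of the 35 members, against 2725 of all 25446 items. The median difference of the members was 0.25, against 0.02 for all items. The difference of Itgb2 was 0.63 ± 0.09 (adjusted p = 0.0822). Aged animals lay above all middle-aged ones for 16 members, against 10.4% of all items, and below for 0, against 6.60%. All 3 ages were fully separated in rising order for 10 members, Aif1, Cd68, Inpp5d, Itgb2, Laptm5, P2ry12, Ptpn6, Ptprc, Rac2 and Selplg, against 1.20% of all items. These comparisons share the middle-aged or young animals with each other.

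A test of the middle-aged level against the midpoint of the young and aged levels called 0 members and 0% of all items. At an unadjusted p under 0.05 there were 2 of the 35 members, against 1313 of all 25446 items, a similar share. The 2 members were Plcg2, which lay 0.33 above the midpoint, and Olfml3, which lay below it by a difference of −0.39. A moderated F test over the ages passed for 7 of the 35 members, against 1.15% of all items: Itgb2, P2ry12, Laptm5, Aif1, Cd68, Ptpn6 and Ptprc. This count was 4 without young replicate 2 or young replicate 3. These were also the 7 of the 12 that passed for aged against young animals without each of the 9 animals in turn.

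**Figure D3:**
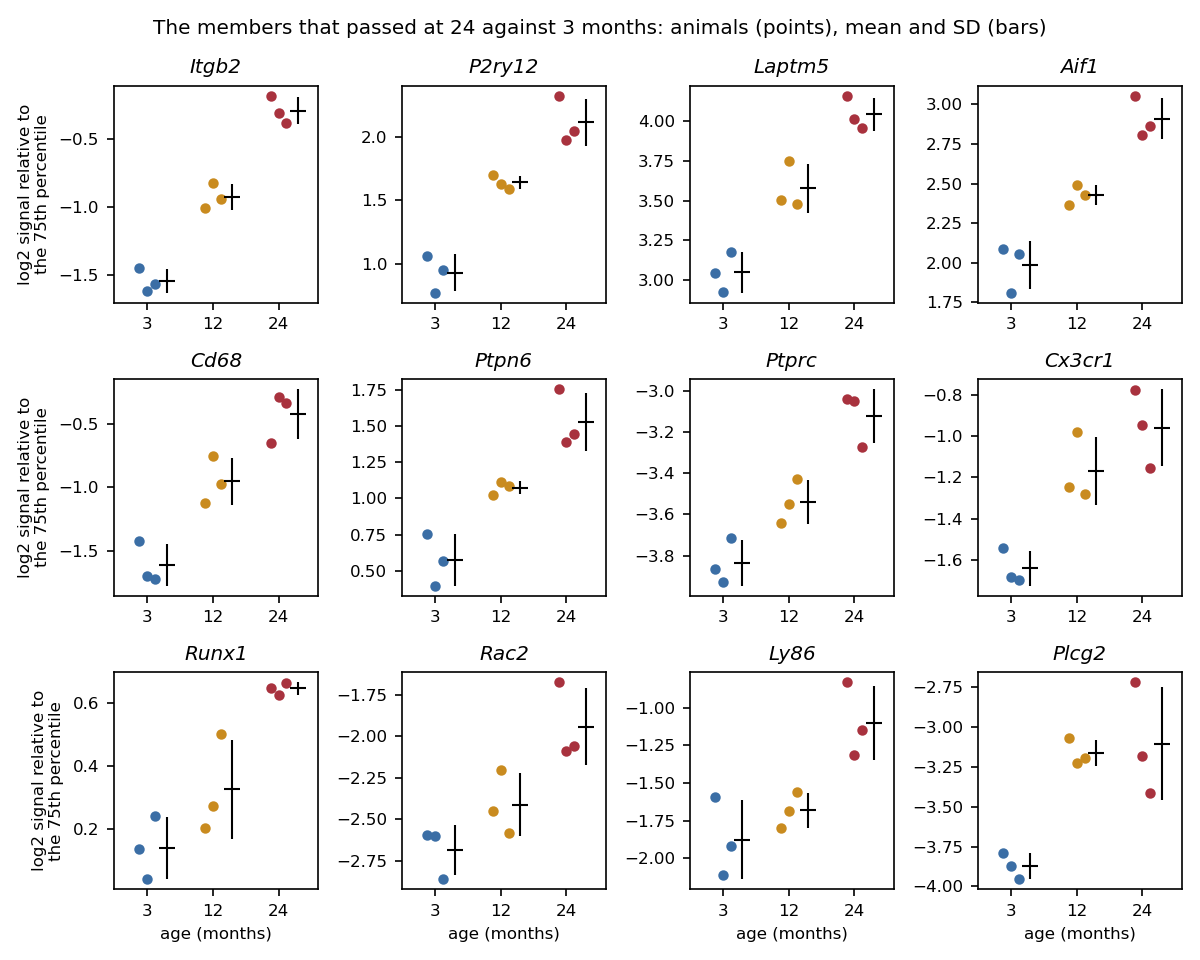
Each panel shows 1 of the 12 members that rose between 3 and 24 months, with the log2 signal of each animal (points) and the mean and SD of its age group (n = 3). In Itgb2, P2ry12, Laptm5, Aif1, Cd68, Ptpn6, Ptprc and, narrowly, Rac2 the 3 ages stand apart, whereas in Cx3cr1, Runx1, Ly86 and Plcg2 neighbouring ages overlap.

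The animals themselves differed in a common direction. Relative to the mean of the young animals, the median of the 35 members was 0.10, −0.09 and −0.01 in the young, 0.33, 0.48 and 0.32 in the middle-aged and 0.84, 0.55 and 0.54 in the aged animals. Aged replicate 1 was the highest of its group for 29 members, middle-aged replicate 2 for 21 and young replicate 1 for 22, while young replicate 2 was the lowest for 20. Between the arrays of a replicate 3 animal, the median absolute difference of the members was 0.04 to 0.06, against a median SD of 0.187 between animals of an age. The highest was 0.58 for Vav1 in the young animal, and 0.55 and 0.50 for Spi1 in the middle-aged and the aged animal.

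Slides bear on each comparison. With slide as a term and animal as a random block, 11 members passed for aged against young animals and 9 of the 12 above were among them; Ly86, Plcg2 and Runx1 were not, while Cd37 and Vav1 were added. Within slide 3, where 1 animal stood for each age, the median member difference was 0.55 from young to aged, with 32 of 35 positive. From young to middle age it was 0.36 within slide 1 and 0.32 within slide 3. From middle to old age it was 0.30 within slide 2 and 0.22 within slide 3. Leaving out the 3 animals that stood apart on the second component, an alternative chosen after seeing the data, left 1 member past the threshold, Itgb2 (limma, adjusted p = 0.0322), with 2 animals per age. The median member difference in that fit was 0.69, against 0.63 with all animals.

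Different probes of a gene did not always give the same size of difference. For Ptprc, the 2 kept probes rose by 0.71 and 0.88 from young to aged in a fit of all 29797 kept probes (limma, adjusted p = 0.00863 and 0.00935). The third probe was well above background on 3 of 4 aged, 1 of 4 middle-aged and 0 of 4 young arrays and was not kept. For Lyn the brighter probe had a difference of 0.54 and the dimmer 0.44. For Inpp5d the brightest probe, at chr9:86865196-86865255, had a difference of 0.61, whereas the intron-spanning probe shown above had 0.26 and the third 0.19. None of the Inpp5d probes passed, and the difference between probes was not tested. For Dock2 the kept probe was flat, at 0.09, and the others were too dim to keep. Their differences were 0.55 and 1.21, the latter from a probe not well above background on any array.

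**Figure D4:**
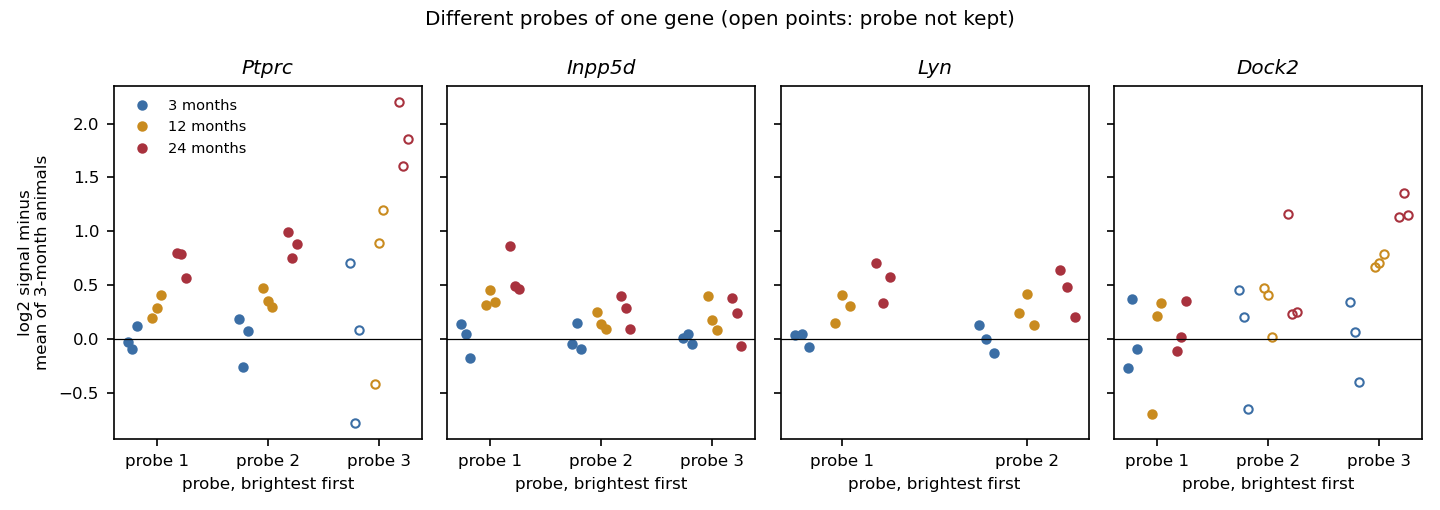
Points give the log2 signal of each animal relative to the mean of the 3-month animals for every probe of Ptprc, Inpp5d, Lyn and Dock2, brightest probe first, with open points for probes that were not kept. The kept Ptprc probes differ by 0.71 and 0.88 between 24 and 3 months, while the 3 Inpp5d probes differ by 0.61, 0.26 and 0.19.

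The member promoters were read because PU.1, encoded by the member Spi1, binds purine-rich sites around the letters GAGGAA. RefSeq promoters of build GRCr8 were found for 27 of the 42 members, and the 250 bases before the start of the gene were searched on both strands. Not matched were P2ry12, P2ry6, Tmem119, Selplg, Ly86, Itgb2, Itgal, Sall1, Spi1, Lyn, Aif1, Rac2, Arhgdib, Lcp1 and Bin2. GAGGAA occurred in 16 of the 27, or 59.3%, against 23.3% of all 33465 promoters of the table. It occurred in 4 of the 7 promoters available for members that rose, those of Cd68, Laptm5, Plcg2 and Ptprc. The longer GAGGAAGT, which contains GAGGAA, occurred in 4 of 27 member promoters (14.8%) against 2.04%, in Cd37, Cd53, Csf2ra and Vav1. It occurred in 0 of the 7 promoters of members that rose. Since members that did not pass also held these letters, the excerpts of Cd37 and Vav1 are set beside those of the members that rose, with the match in capitals (TTCCTC and ACTTCCTC are the same letters on the other strand).
Cd68, chr10:54882442-54882501, minus strand: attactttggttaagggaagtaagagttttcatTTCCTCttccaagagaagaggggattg
Laptm5, chr5:148371790-148371849, plus strand: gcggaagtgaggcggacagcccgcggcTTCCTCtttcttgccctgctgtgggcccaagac
Plcg2, chr19:62456035-62456094, plus strand: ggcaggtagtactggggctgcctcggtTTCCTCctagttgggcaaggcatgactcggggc
Ptprc, chr13:52259877-52259936, minus strand: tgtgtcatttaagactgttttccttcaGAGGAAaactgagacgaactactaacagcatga
Cd37, chr1:104860830-104860889, minus strand: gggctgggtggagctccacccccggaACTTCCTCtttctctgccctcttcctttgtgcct
Vav1, chr9:2248877-2248936, plus strand: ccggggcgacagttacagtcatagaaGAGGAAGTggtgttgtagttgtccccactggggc

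The ETS-IRF composite element, which can overlap GAGGAA, occurred in 1 member promoter, that of Cd68, and in 2.48% of all promoters. TGTGGT, the core bound by Runx proteins, occurred in 6 of 27 member promoters (22.2%) against 14.5% of all. These were Cx3cr1, Dock2, Gpr34, Itgam, Ptpn6 and Was. The matches describe letters in the window and no measurement of binding is behind them.

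Genes that act with the members were followed on 3 further lists. Of the ligands of member receptors, 0 of 5 tested genes passed for aged against young animals. Cx3cl1, the fractalkine ligand of Cx3cr1, had a difference of 0.03 ± 0.07 and Csf1, a ligand of Csf1r, one of 0.33 ± 0.13 (limma, adjusted p = 0.89 and 0.28). Of other microglial and myeloid regulators 4 of 13 rose and 0 fell, with a median difference of 0.56. Among them were Ikzf1, which encodes a haematopoietic transcription factor (1.11 ± 0.14), Irf5, an interferon regulatory factor (0.66 ± 0.09), and Slc2a5, a fructose transporter abundant in microglia (0.77 ± 0.10).

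Among other haematopoietic signalling genes 8 of 19 rose and 0 fell, with a median difference of 0.59. The 6 with the smallest adjusted p were the adaptors Blnk (1.02 ± 0.10) and Lat2 (1.00 ± 0.10), the protein kinase C substrate Plek (1.20 ± 0.15), the phospholipase Plcb2 (0.85 ± 0.11), the kinase Fgr (1.18 ± 0.17) and the actin regulator Nckap1l (0.81 ± 0.15). In the per-animal medians both lists showed the order of the members, with each aged animal above each middle-aged animal and each middle-aged animal above each young animal.

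Since Ptprc, Itgb2 and many signalling members are made by all leukocytes, markers of other cells in the punch were measured beside them. Of the lymphocyte markers 1 of 5 tested rose, Prf1, the pore-forming protein of cytotoxic cells, by 2.26 ± 0.38. Cd3e, Cd5, Cd8a, Klrd1 and Ms4a1 were not well above background on any array. The summed signal of the tested lymphocyte markers, in multiples of the 75th percentile of the array, was 0.416 to 0.467 in young and 0.512 to 0.581 in aged animals. Of monocyte and neutrophil markers 0 of 5 passed, with a median difference of 1.45. Their sum was 0.176 to 0.415 in young and 0.534 to 0.855 in aged animals, and Ccr2 was not well above background on any array.

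Perivascular macrophage markers Lyve1 and Pf4 rose by 0.82 ± 0.10 and 0.96 ± 0.19, 2 of 5 tested, and the sum of that list was 0.88 to 1.05 in young and 1.32 to 1.57 in aged animals. Of the red blood cell genes 0 of 5 passed, with a median difference of 0.87 and sums of 69.3 to 99.5 in young and 109.5 to 158.2 in aged animals. At 12 months the red cell sum, 73.8 to 78.1, lay within the young range. The 12-month sums of monocyte and neutrophil, lymphocyte and perivascular macrophage markers were 0.285 to 0.503, 0.446 to 0.497 and 0.910 to 1.24. Each of these ranges overlapped the young range and reached above it. Sums and medians are different measures. As medians per animal relative to the young mean, the members were at 0.32 to 0.48 at 12 months, against −0.09 to 0.10 in young animals. On that measure lymphocyte markers were at 0.12 to 0.25, against −0.09 to 0.13. Monocyte and neutrophil markers were at 0.235 to 0.97, against −0.42 to 0.69. Perivascular macrophage markers were at −0.04 to 0.26, against −0.16 to 0.11. The part of these cells in the member differences was not tested. Medians of neuronal, astrocyte and endothelial markers differed by −0.03, 0.04 and −0.02 from young to aged, and that of oligodendrocyte markers by −0.34. Single astrocyte markers ranged from −0.54 to 0.92, and 0 of 9 passed. The median of the catecholamine neuron markers differed by −0.39, and 0 of 5 passed. Per animal, that median was −0.71 to −0.21 in aged and −0.04 to 0.04 in young animals.

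**Figure D5:**
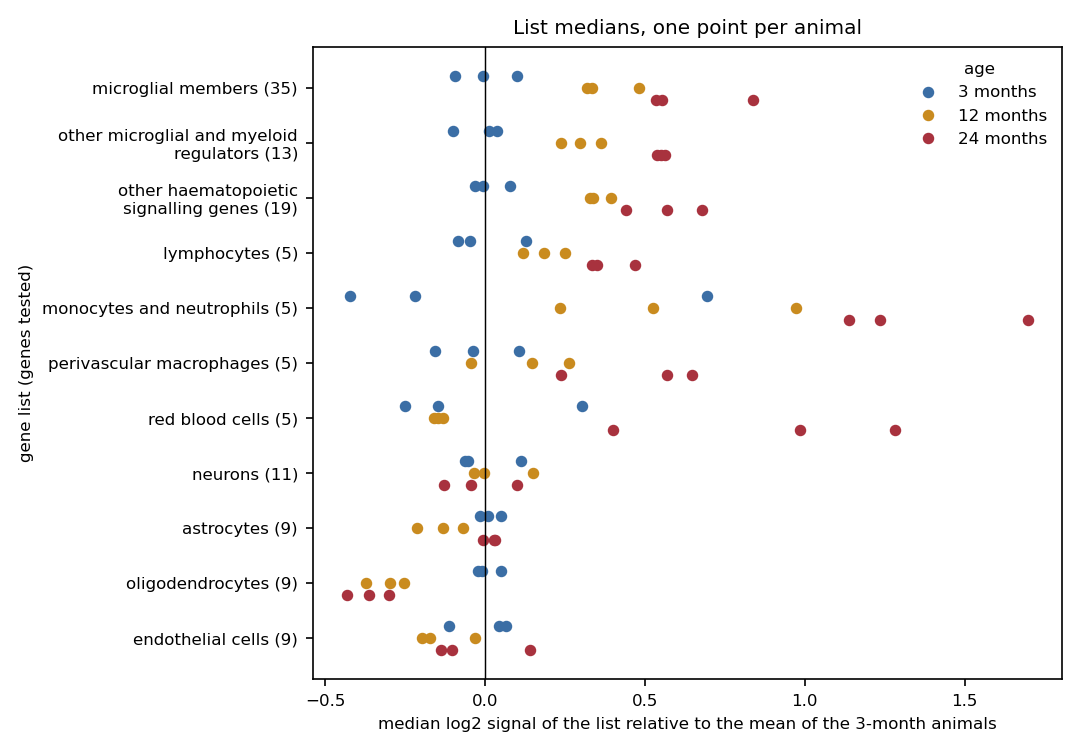
Each point is the median, in 1 animal, of the tested genes of a list, as log2 signal relative to the mean of the 3-month animals, coloured by age. The 3 ages stand in order for the microglial members (0.54 to 0.84 at 24 months). In red blood cell genes the 12-month animals lie with the 3-month animals. In monocyte and neutrophil markers they overlap the 3-month animals and reach 0.97, against 0.69 at 3 months. Neuronal, astrocyte and endothelial medians overlap between 3 and 24 months.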

How the data were processed

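The deposited scanner files give, for one array each, the linear intensity of every spot. Per the submitters' processing notes they came from Agilent Feature Extraction 9.5.1.1, and per the file headers the processed signal was background-subtracted and detrended within the array, with no scaling between arrays. Flags for saturation, outlier spots and signal above background are 0 or 1 per spot as deposited. The deposited series matrix holds a score with mean 0 and SD 1 per array over 36424 features, 271 of them controls. The base of its logarithm could not be told, so these values were used only in an alternative.

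From these files, log2 processed signals without outlier spots (57 to 140 of 43379 per array) were averaged per probe, and the 75th percentile of each array was subtracted. A probe was kept when some age had it well above background on all 4 of its arrays, which held for 29797 of 41012 probes and 39 of the 47 member probes. The brightest kept probe stood for a gene. No member value was missing on any array. Names came from the array files and current RefSeq tables, and probe positions are on build rn3 per the file headers. Group means of all 9 animals entered a limma model (version 3.58.1, R 4.3.3, empirical Bayes, prior degrees of freedom 2.64), and two-sided p-values received the Benjamini-Hochberg adjustment across 25446 items, with a threshold of 0.05. Rose and fell are used only past it, and ± is the limma standard error. The number of animals, 3 per age, limits the precision. The members, lists and tests were chosen with earlier results of these data known. By rule, values in every animal are given for members that passed in a comparison and for 10 genes that define microglia, and Olfml3 was added after its values were seen. At most 6 passed genes of each pathway list are named. Marker lists of neurons, glia, vessels and blood cells were measured alongside. Some genes of these lists are not reported here by name.

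The labels give replicate numbers 1 to 3 in each age without tying them to a litter or day. Deviations of same-numbered animals correlated at −0.41 to 0.37 over 9 pairs, against −0.39 to 0.34 over 18 pairs with different numbers. The numbers therefore showed no sign of pairing, but so few animals cannot exclude a shared litter or day.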

Additional observations from a re-analysis of the deposited data

How the results depend on the processing

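For aged against young animals, 6 of the 12 members that rose passed under every omission of 1 animal and under 11 other settings with a test. They were Aif1, Cd68, Itgb2, Laptm5, P2ry12 and Ptpn6. Those 11 settings leave out the fit with 2 animals per age, in which only Itgb2 passed (limma, adjusted p = 0.0322). Ptprc passed under every omission of 1 animal and, of the 11 settings, under all but the normexp background correction (0.30, adjusted p = 0.296). The count of 12 was 7 with no filter on dim probes, 20 with animal as a random block and no slide term, and 1 with 2 animals per age, where the median was 0.69. Without 1 animal in turn it ranged from 7 to 12, with 7 when young replicate 2, young replicate 3 or aged replicate 1 was left out. The member median of 0.63 was 0.41 with normexp and 0.55 to 0.70 without 1 animal. The cause of these shifts was not tested.

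For middle-aged against young animals, the count of 1 member was 0 with normexp, the series matrix, no filter on dim probes, only the groups compared, and 2 animals per age, 2 with the random block and no slide term, and 0 without any 1 animal. The median of 0.37 was 0.19 with normexp and 0.33 to 0.45 without 1 animal. For aged against middle-aged animals the random block without slide called 1 member; without 1 animal the count stayed at 0 and the median ranged from 0.17 to 0.31. The midpoint test called 0 members without any 1 animal, with medians of −0.03 to 0.07. The F test count of 7 was 11 with that random block, 0 with 2 animals per age, and 4 to 8 without 1 animal.

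With the replicate number as a block, which the data did not bear out as a pairing, 11 members passed for aged against young (10 of the 12 above), 0 for middle-aged against young, 0 for aged against middle-aged and 5 in the F test. Over all items this block called 356, 8 and 0 in the 3 comparisons.

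The 520 items called over the array for aged against young became 309 with normexp, 288 without the filter, 321 with slide, 625 with the random block and no slide term, 343 with only the groups compared, 55 with 2 animals per age, and 271 to 510 without 1 animal. The 51 for middle-aged against young became 23 with normexp, 33 with the series matrix, 5 without the filter, 33 with slide, 75 with the random block, 3 with only the groups compared, 3 with 2 animals per age, and 2 to 26 without 1 animal. The 3 for aged against middle-aged became 1 with quantile normalization, 1 with median centring, 0 with the series matrix, 0 without the filter, 1 with slide, 26 with the random block, 1 with only the groups compared, 0 with 2 animals per age, and 0 to 4 without 1 animal.

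Signs changed for members near 0. For aged against young, Bin2 was −0.15 with slide and −0.33 on slide 3 alone. Coro1a was −0.08 and −0.31 in those settings and −0.10 to 0.22 without 1 animal. Dock2 was −0.0012 with normexp, −0.0027 with quantile normalization, −0.02 with the series matrix, and −0.05 to 0.27 without 1 animal. Fyb was −0.01 with quantile normalization, −0.04 with median centring, −0.06 with the series matrix, −0.07 with slide, −0.0039 with the random block, −0.19 on slide 3, and −0.04 to 0.07 without 1 animal. Olfml3 was 0.21 on slide 3 and −0.32 to 0.02 without 1 animal. For aged against middle-aged, Plcg2 was −0.01 with quantile normalization, −0.03 with the series matrix, −0.24 on slide 3, and −0.14 to 0.21 without 1 animal. Dim probes leave Siglech, Itgal and Was without a test.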
